A study of Cynara cardunculus with 36 samples.

Results

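Among 21883 gene models with usable counts in the hearts of stored globe artichoke heads, 166 were lower after the first week of cold storage in the cultivars Imperial Star (IS) and Green Globe Improved (GGI) while staying level in Opal (OP) and Green Queen (GQ). The 150 of them with the strongest mean fall are described here as the early fallers, out of 28632 gene models in the deposited tables. The choice was made on the measured values themselves. A member had to be lower at day 7 than at day 0 by at least 1.2 on the log2 scale, or 2.30-fold, in both IS and GGI, and to lie within 0.4 of its day 0 value in both OP and GQ. The scale is log2 CPM, the logarithm of the CPM, a count scaled by the library's reads in gene models, after TMM scaling between libraries (a trimmed mean of ratios) and with a prior count of 2, which pulls differences of weakly expressed gene models towards 0. Since day 7 and day 0 levels chose the members, their fall in the first week is given as a description with no test, and tests are kept to comparisons that rest on the day 14 libraries, which the choice did not use. The tests within OP and GQ also use their day 0 libraries, which entered the choice through the band of 0.4.

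The artichoke heart is the fleshy inner part of an immature flower head. A cut head goes on respiring without new supply from the plant, and cold storage slows its ageing, which shows as browning when phenolic compounds are oxidised by enzymes such as polyphenol oxidase. Hearts of IS, GGI, OP and GQ were taken after 0, 7 and 14 days in the cold. Each cultivar had 3 biological replicates at each day, which makes 36 libraries of total RNA. All plants shared a Florida field and a GA treatment that brings flowering forward, and all heads had been kept in the cold before the day 0 sampling, so day 0 is not the state at harvest. Library numbers ran in blocks by day, so library order and storage time cannot be told apart. The gene models carry IDs only, and 0 of them matched the RefSeq gene table of this species. No function, sequence or position is therefore given for any member, the tissue could not be checked against marker genes, and at most 2 IDs that fell and 2 that rose are named.

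The depth ran between 5.76 and 54.5 M reads in gene models (median 39.6 M). In 4 day 7 libraries 30.1% to 71.0% of the listed reads fell outside gene models, OP replicate 1, GGI replicate 2 and GQ replicates 2 and 3, against 9.39% to 16.0% in the other 32 libraries. These 4 were left out of the choice of members and of the tests, which leaves 2 day 7 libraries in GGI, 2 in OP and 1 in GQ. At day 14, the libraries labelled GGI replicate 1 and GQ replicate 1 went against their labels. At day 0, 99 gene models told GGI from GQ by being on in every heart of one and off in every heart of the other. The library labelled GGI had 91 of them as in GQ, against 32 and 27 in the other GGI libraries of that day. The library labelled GQ had 71 of them as in GGI, against 6 and 9 in the other GQ libraries of that day. Both stay in their labelled groups, and the main day 14 results are also given without them.

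The first week is shown by the median of the 150 members in each library, set against the mean of the 4 cultivars at day 0. In IS the 3 libraries lay at 0.66, 0.99 and 0.86 at day 0, at -1.58, -0.10 and -1.52 at day 7, and at -1.77, -1.88 and -1.61 at day 14. In GGI they lay at 0.54, 0.45 and 0.62 at day 0, at -1.65 and -1.46 in the 2 day 7 libraries used, and at -2.33, -2.44 and -1.95 at day 14. The day 0 libraries of both cultivars stood above all their later libraries, and in GGI the 2 day 7 libraries lay above the 3 of day 14. In OP they lay at -0.53, -0.23 and -0.82 at day 0, at -0.43 and -0.66 in the 2 day 7 libraries used, and at -2.09, -2.11 and -1.75 at day 14. In GQ they lay at -0.79, -0.33 and -1.204 at day 0, at -0.86 in the 1 day 7 library used, and at -2.56, -1.88 and -2.29 at day 14. In OP and GQ the day 14 libraries thus lay below all earlier libraries used. The same median over all 21883 gene models lay close to 0 in all libraries used, at its lowest in OP day 14 replicate 1 with -0.11. In bulk tissue, fewer cells of a type and less RNA per cell cannot be told apart.

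**Figure D1:**
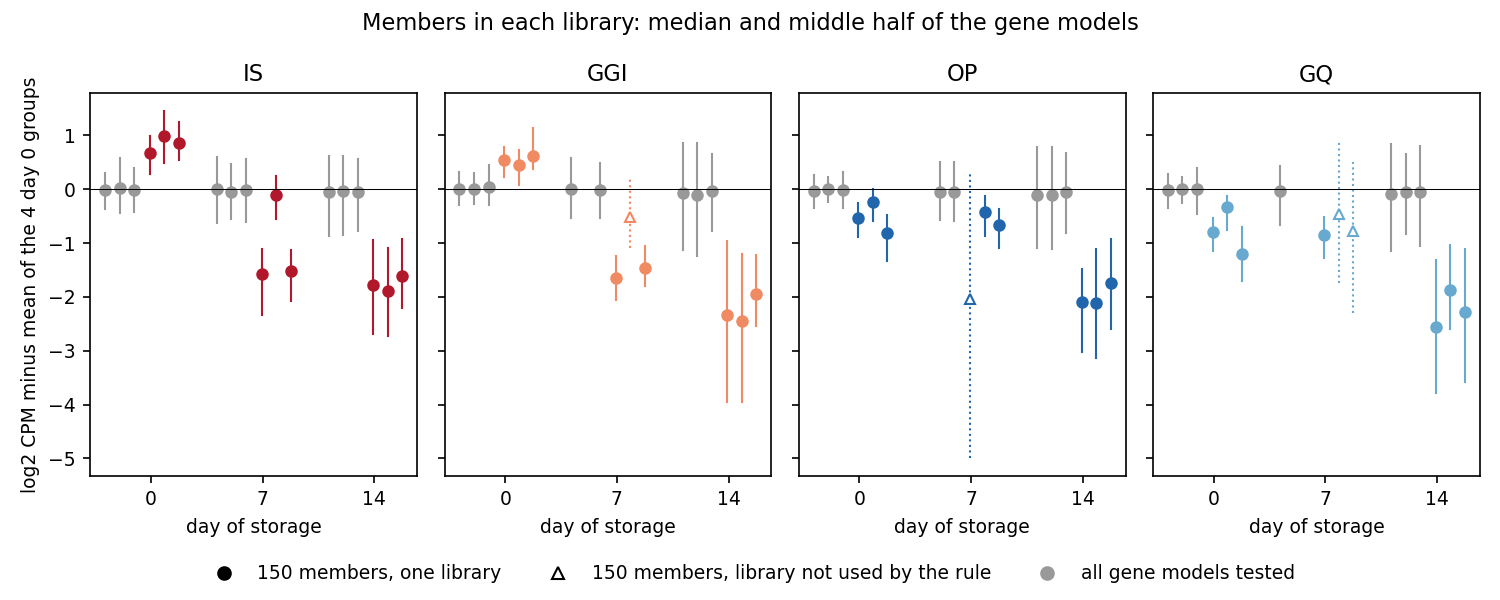
Each point is 1 library: the median over the 150 early fallers (coloured) or over all 21883 gene models tested (grey) of log2 CPM minus the gene model's mean over the 4 day 0 groups, with a bar for the interquartile range. Day 7 libraries of IS and GGI, apart from IS replicate 2 and the open GGI triangle, lie near the day 14 level, whereas OP and GQ reach that level at day 14. Open triangles are the 4 libraries that the choice of members did not use. The OP triangle lies at -2.04, within the range of OP at day 14, and the GGI triangle at -0.51, above the GGI day 7 libraries used. The GQ triangles lie within the range of GQ at day 0.

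The fall that chose the members had a median of -1.81 in IS and -2.0 in GGI (log2 difference, day 7 minus day 0), and ran from -6.17 to -1.21 in IS and from -5.87 to -1.22 in GGI. It was the stronger one in GGI for 90 members and in IS for 60, and the size of the fall in the 2 cultivars correlated over the 150 members with r = 0.42, a description over gene models that share libraries. In OP and GQ the medians were -0.01 and -0.00. Of all gene models tested, 13% had a fall of at least 1.2 in IS, 13.5% in GGI, 7.9% in OP and 12.2% in GQ, and 1681 had one in both IS and GGI. The last member kept by the limit to 150 had a mean fall of -1.43, as had the first one left out. The weaker of the falls in IS and GGI was -1.211 just inside the threshold and -1.199 just outside it. The larger difference in OP or GQ was 0.396 just inside its band and 0.401 just outside. All day 7 libraries lay below all day 0 libraries in 145 members in GGI, where 31.7% of all gene models tested did so, and in 120 members in IS, where 20.6% did. Both held in 116 members, where 13.9% of all gene models did so, and in 142 without IS day 7 replicate 2, where 19.9% did. These counts come from the libraries that chose the members, so nothing is read from them.

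IS day 7 replicate 2 stood apart from the other IS hearts of that day. The members lay below their IS day 0 mean by a median of -0.94 in it, against -2.31 in replicate 1 and -2.24 in replicate 3. A fall of at least 1.2 was reached by 57 members in replicate 2, against 148 in replicate 1 and 148 in replicate 3. Over all gene models its median difference from IS day 0 was -0.02. Its reads outside gene models were 13.3%, against 10.1% and 10.7% in the other IS day 7 libraries. The part of this library's deviation in the choice of members can be read from leaving it out. The rule then found 215 gene models in place of 166, and 147 members had their remaining IS day 7 libraries below all IS day 0 libraries, where 30.2% of all gene models did.

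The rule left out 4 day 7 libraries, each of which stands apart from its group. Their values are set against the day 0 libraries that chose the members, so they are descriptions too, and nothing is read from them. In GGI replicate 2 the members lay below the GGI day 0 mean by a median of -1.04, against 0 over all gene models, and 102 of the 150 lay below all 3 GGI day 0 libraries, where 39.3% of all gene models did. This library still lay 1.17 above the GGI day 7 libraries that were used. In GQ replicates 2 and 3 the median of the members was 0.37 above and 0 from the GQ day 0 mean, where all gene models had -0.25 and -0.42, and 47 and 57 members lay below all GQ day 0 libraries, where 52.5% and 50.2% of all gene models did. In OP replicate 1, with 71.0% of its reads outside gene models, the members had a median of -0.78 and all gene models one of -0.70. With all 36 libraries in the group means the rule found 51 gene models, of which 18 were among the 166, so the list holds for the 32 libraries it was chosen on.

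The members were not at a common level before storage. At day 0 the mean of IS and GGI exceeded the mean of OP and GQ by a median of 1.32 (log2 difference), and in 145 of the 150 members it was the higher one. In 84 members all 6 IS and GGI libraries lay above all 6 OP and GQ libraries, where 7.93% of all gene models tested did. In 0 members all lay below, where 7.23% of all gene models did. IS was the highest of the 4 cultivars in 104 members and GGI in 41, while GQ was the lowest in 100 and OP in 44. The reads of all members together were 0.768% to 1.03% of the reads in gene models in IS and 0.645% to 0.835% in GGI at day 0, against 0.252% to 0.423% in OP and 0.197% to 0.407% in GQ. Since the day 0 libraries took part in the choice, this excess is a description. At day 7, when IS and GGI had fallen, the median difference was -0.62, and IS and GGI were the higher pair in 26 members.

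**Figure D2:**
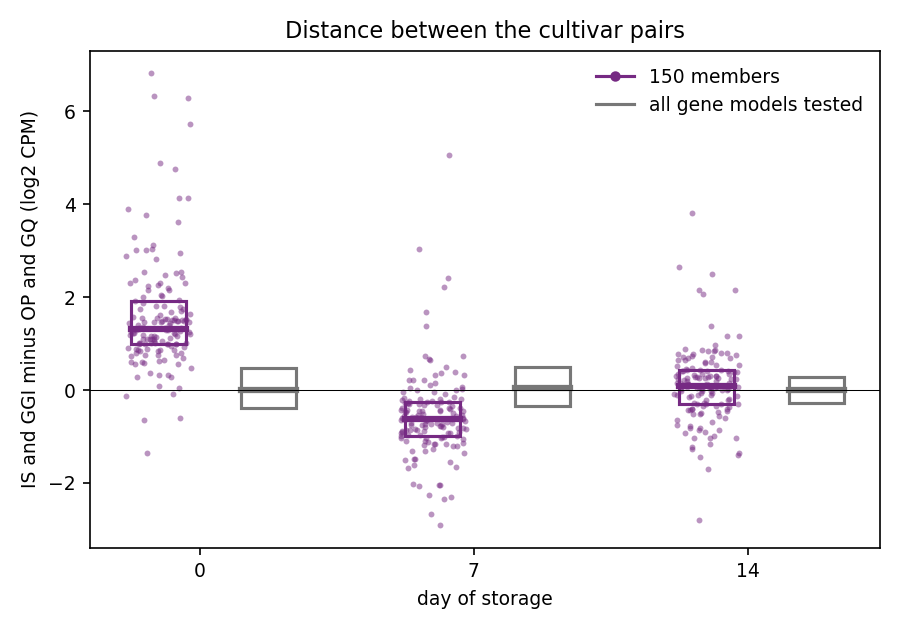
Mean log2 CPM of IS and GGI minus that of OP and GQ at each day, 1 point per member, with a box for the interquartile range and a thick line for the median of the 150 members (purple) and of all 21883 gene models tested (grey). The median of the members is 1.32 at day 0, -0.62 at day 7 and 0.09 at day 14.

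Whether the cultivar pairs still differed at the end of storage was tested on the day 14 levels, which had no part in the choice. The fit held all 32 libraries, so the libraries that chose the members enter the shared estimate of the spread. At day 14 the median difference between IS and GGI and OP and GQ was 0.09 over the members and -0.01 over all gene models. The edgeR quasi-likelihood test of this difference (Benjamini-Hochberg adjusted p under 0.05, adjusted over all 21883 gene models) called 8 of the 150 members, or 5.33%, where 9.28% of all gene models tested were called. Of the 8, 5 were higher and 3 lower in IS and GGI, where 5.2% and 4.08% of all gene models were. In 1 member all 6 IS and GGI libraries lay above all 6 OP and GQ libraries at day 14, where 0.302% of all gene models did. In fitted log2 fold change the 5 members called higher ran from 1.19 to 5.22 and the 3 called lower from -2.71 to -1.33. A difference that misses the test does not show that the cultivars were alike. In this test 28 members, or 18.7%, had an unadjusted p under 0.05, where 24.8% of all gene models had one. Without the libraries labelled GGI replicate 1 and GQ replicate 1 the test called 15 members, where 2808 of all 21883 gene models were called. Of the 15, 9 were higher and 6 lower, and 7 were among the 8. The median difference over the members was then -0.02. A fit of the day 14 libraries alone called 2 members, where 607 of all gene models were called. In the fit of all days 14 members were called without IS day 7 replicate 2 and 5 without IS day 14 replicate 1. Counts over all gene models are not given for these fits.

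In OP, day 14 against day 0 asked whether members that were level at day 7 changed later. Not all members could fall by 1.2, though all could rise. In 8 members OP had 0 reads at day 0 and day 14, and in 13 its day 0 level was less than 1.2 above that of 0 reads, so that a fall of 1.2 was out of reach. In GQ these numbers were 4 and 11, and 14 members were out of reach in OP or GQ. These members stay in all counts and none of them was called lower in the cultivar concerned. The median change of the members was -1.22 (log2 difference), against -0.06 over all gene models. The edgeR quasi-likelihood test called 74 members lower and 5 higher, where 23.2% of all gene models tested were called lower and 21.6% higher. All 3 day 14 libraries lay below all 3 day 0 libraries in 97 members, where 29.2% of all gene models did. A fall of at least 1.2 was seen in 76 members, where 18% of all gene models had one. With all 36 libraries in the fit, which includes OP day 7 replicate 1, the test called 48 lower and 3 higher. The remaining calls were all among the 79, and 5653 of all 21883 gene models were called in that fit.

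In GQ the median change of the members at day 14 against day 0 was -1.39, against -0.05 over all gene models. The edgeR test called 80 members lower and 9 higher, where 23.8% of all gene models were called lower and 24.5% higher. All day 14 libraries lay below all day 0 libraries in 82 members, where 30.3% of all gene models did, and 82 members had a fall of at least 1.2, where 19.3% of all gene models had one. Without the 2 day 14 libraries that went against their labels, the median change was -1.24. A fall of at least 1.2 was then seen in 76 members, where 17.5% of all gene models had one. In 90 members the remaining day 14 libraries lay below all day 0 libraries, where 34.1% of all gene models did so. The test then called 72 members in either direction, 68 of them among the 89, where 9084 of all 21883 gene models were called. In both OP and GQ, 63 members were called lower, or 42%, where 16.6% of all gene models were. Another 3 were called higher in both, where 3637 of all 21883 gene models were. Called in neither cultivar were 48 members, where 40.3% of all gene models were called in neither. Of these 48, 8 had no room for a fall of 1.2 in OP or GQ. Without the 2 libraries that went against their labels, 53 members were called lower in both, where 14.9% of all gene models were. In that fit 52 members were called in neither, where 42.6% of all gene models were. Across members, the day 14 change in OP and GQ correlated with r = 0.80 (150 gene models, a description).

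The edgeR test of the difference between the OP and the GQ change from day 0 to day 14 called 0 of the 150 members, where 0.206% of all gene models were called, 0.11% with the higher and 0.096% with the lower change in OP. At an unadjusted p under 0.05 there were 15 members, or 10%, where 12.8% of all gene models had one. DESeq2 called 3 members, where 477 of all 21883 gene models were called.

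IS and GGI also lay low at the end of storage. At day 14 the members lay below day 0 by a median of -2.61 in IS and -2.88 in GGI, and they were at least 1.2 lower in both cultivars in 120 members, where 15.2% of all gene models were. In IS alone 134 members were at least 1.2 lower, where 20.6% of all gene models were, and in GGI 128, where 23.4% were. All day 14 libraries lay below all day 0 libraries in 140 members in IS, where 33.4% of all gene models did, in 130 in GGI, where 31.5% did, and in 68 in all 4 cultivars, where 13.4% did. Between day 7 and day 14 the median moved by -0.71 in IS and by -0.60 in GGI. A further fall of at least 1.2 was seen in 38 members in IS and 53 in GGI, where 11.3% and 18.8% of all gene models had one. Within 0.4 stayed 35 members in IS and 35 in GGI, where 9557 and 6662 of all 21883 gene models did. A rise of at least 1.2 after day 7 was seen in 10 members in IS and 14 in GGI. Of all gene models, 7.33% and 13.8% had such a rise. These differences share libraries with the choice of members, which favours high day 0 and low day 7 values, so they have no test. Without the 2 libraries that went against their labels the day 14 median in GGI was -2.74. At least 1.2 lower were then 132 members in GGI and 124 in both IS and GGI, where 22.5% and 15.2% of all gene models were. The day 14 libraries then lay below all day 0 libraries in 137 members in GGI, where 34.5% of all gene models did so. In all 4 cultivars this held in 74 members, where it held in 14.2% of all gene models.

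**Figure D3:**
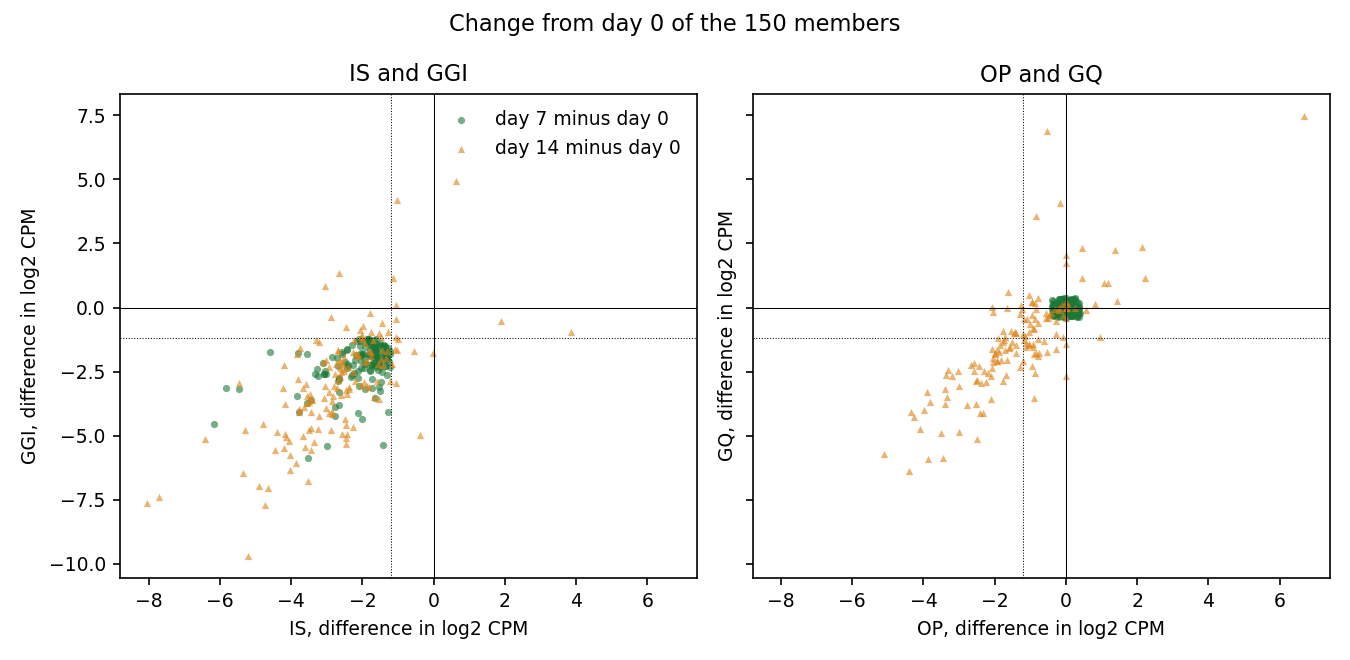
Change in log2 CPM from day 0 to day 7 (green circles) and to day 14 (orange triangles), 1 point per member, with GGI against IS on the left and GQ against OP on the right. Dotted lines mark -1.2. In OP and GQ the circles sit within 0.4 of 0, as the choice required, and the triangles spread along the diagonal, with 61 members past both lines.

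By day 14 the list had split by what OP and GQ did. In 61 members all 4 cultivars were at least 1.2 below day 0, where 9.12% of all gene models were, and in 119 members all 4 were below day 0 by some amount, where 31.9% were. These 61 were all the members in which OP and GQ were both at least 1.2 lower. Another 10 members were low in IS and GGI while OP and GQ stayed within 0.4 of day 0, where 0.347% of all gene models did the same. In 12 members IS or GGI was back within 0.4 of day 0 or above it, and in 1 member both were, where 71.3% and 51% of all gene models were. OP or GQ was at least 1.2 lower in 97 members, where 24.2% of all gene models were, and both were within 0.4 of day 0 in 12, where 17.5% were. Of the 10, 6 lay at or next to 0 reads in OP and GQ at day 0 and could not have left the band downwards, and 4 could have. Of the 76 gene models with this course in all, 37 had no room for a fall of 1.2 in OP or GQ. In 3 members OP and GQ were both at least 1.2 higher, where 10.7% of all gene models were, and in 0 members all 4 cultivars were, where 7.35% were. At day 14 in at least 1 cultivar, 14 members had 0 reads in all 3 libraries. Without the 2 libraries that went against their labels, 58 members were at least 1.2 lower in all 4 cultivars, where 8.66% of all gene models were. In all 4 by some amount, 115 members were lower, where 31.8% of all gene models were. In this setting 11 members were low in IS and GGI and level in OP and GQ, where 0.43% of all gene models were. Both OP and GQ were at least 1.2 higher in 5 members, where 10.4% of all gene models had this. Setting groups with 0 reads to a floor of 3 counts left the day 14 medians of IS, GGI and OP as they were and made that of GQ -1.41.

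**Figure D4:**
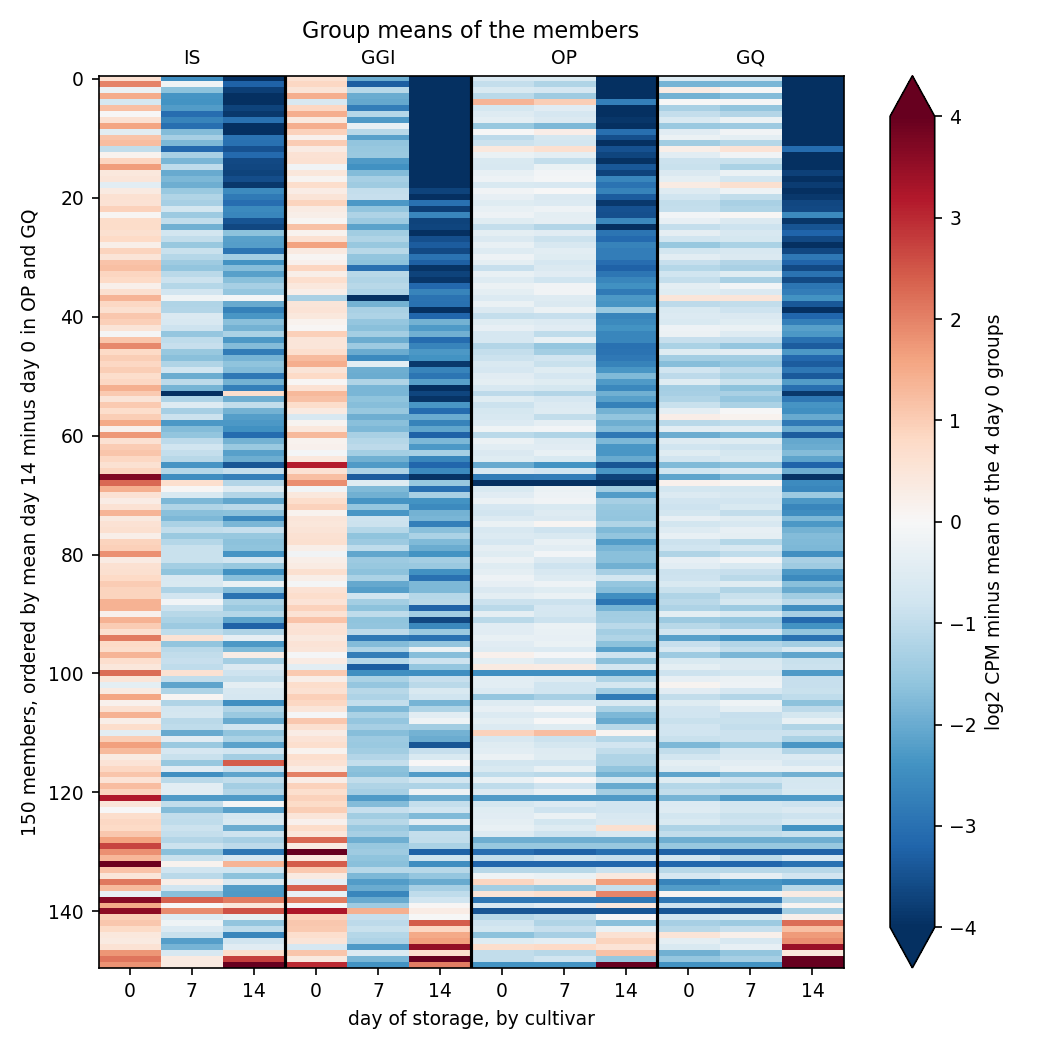
Group means of the 150 members (rows, ordered by the mean day 14 change in OP and GQ, strongest fall at the top) for IS, GGI, OP and GQ at day 0, 7 and 14, as log2 CPM minus the mean of the 4 day 0 groups; colours are limited to 4 either way. IS and GGI turn from red to blue between day 0 and day 7, and most rows of OP and GQ darken at day 14, while the rows at the bottom turn red in OP or GQ.

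The strength of the early fall went with the day 0 difference between the pairs, both of which rest on the same day 0 libraries. The 50 members with the strongest mean fall, from -5.35 to -2.26, had a median day 0 difference of 2.03 between IS and GGI and OP and GQ, against 1.25 in the middle 50 and 1.01 in the weakest 50. At day 14 the 3 medians were 0.10, 0.06 and 0.12. From the strongest to the weakest 50, the median day 14 change was -1.35, -1.04 and -1.44 in OP and -1.76, -1.01 and -1.22 in GQ. The list was also divided by level of expression. In the 75 members with the higher mean log2 CPM the day 14 medians were -1.41 in OP and -1.42 in GQ, against -1.0 in OP and -1.35 in GQ in the 75 with the lower one. These divisions keep the 14 members with no room for a fall of 1.2 in OP or GQ. Among the strongest 50, the members of rank 6, 10 and 11 had 0 reads in OP and GQ at day 0. Such members could leave the level band at day 7 only by a rise. How far they set these medians was not tested. Mean levels at day 0 ran from 0.139 to 391.5 CPM with a median of 7.71, and 14 members were under 1 CPM. CPM are not corrected for transcript length, so these levels say how many reads carried each value and not which member was most abundant.

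In each group with 2 or more libraries, the median SD between its hearts was larger over the members than over all gene models. This median was 0.81 over the members and 0.40 over all gene models in IS at day 7, and 0.36 and 0.30 in IS at day 0. In GGI at day 14 it was 0.78 over the members and 0.45 over all gene models, and in GQ at day 14 0.69 and 0.39. Without the 2 libraries that went against their labels it was 0.68 over the members and 0.39 over all gene models in GGI at day 14, and 0.42 and 0.29 in GQ.

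IS and GGI were compared with each other at day 14, to see whether members that fell in both ended at the same level. The edgeR test called 15 members higher and 9 lower in IS than in GGI, where 7.33% and 11.9% of all gene models were. That is 16% of the members, where 19.2% of all gene models were called. The count was 13 without the library labelled GGI replicate 1, 14 without IS day 14 replicate 3 and 15 without GGI day 14 replicate 2. It was 44 without GGI day 14 replicate 3. Counts over all gene models are not given for these fits, so the moves are not read as a trait of the members. A fit of the day 14 libraries of IS and GGI alone called 0 members, where 477 of all 21883 gene models were called.

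V2_03g016780.1.01 and V2_07g006990.1.01 had the strongest falls among the 88 members whose day 7 libraries all lay below day 0 in both IS and GGI and whose mean log2 CPM at day 0 was at least 1. In IS, V2_03g016780.1.01 was at 178, 23.9 and 42.4 CPM at day 0, at 1.18, 16.3 and 2.99 CPM at day 7, and at 0.268, 0.157 and 0.257 CPM at day 14. In GGI, V2_03g016780.1.01 was at 55.3, 84.7 and 37.2 CPM at day 0, at 3.81 and 6.82 CPM at day 7, and at 0.706, 0 and 1.01 CPM at day 14. The 3 days did not overlap in either cultivar, and IS day 7 replicate 2 was the highest of its day. In OP, V2_03g016780.1.01 was at 8.88, 7.23 and 13.8 CPM at day 0, at 2.66 and 20.8 CPM at day 7, and at 0.376, 0.314 and 4.32 CPM at day 14. In GQ, V2_03g016780.1.01 was at 7.96, 3.00 and 6.80 CPM at day 0, at 6.03 CPM at day 7, and at 0, 0.338 and 0 CPM at day 14. The day 14 libraries of OP and GQ lay below their day 0 libraries. In the left-out day 7 libraries V2_03g016780.1.01 was at 0.183 CPM in GGI, 17.1 CPM in OP, and 5.11 and 2.83 CPM in GQ. The log2 fold change of V2_03g016780.1.01 at day 14 was -5.59 ± 1.40 (SE) in GQ (edgeR, adjusted p = 0.00243) and -2.58 ± 1.13 (SE) in OP, which did not pass (adjusted p = 0.0678). The GQ value of V2_03g016780.1.01 rests on 16 reads in GQ day 14 replicate 2. Without that library the day 14 group held 0 reads and the fitted value was -10.97, which is no bound. Without OP day 14 replicate 3, the library at 4.32 CPM, the OP change of V2_03g016780.1.01 was -4.84 ± 1.41 (SE; edgeR, adjusted p = 0.00897).

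V2_07g006990.1.01 had the same order of days. In IS, V2_07g006990.1.01 was at 18.6, 39.2 and 33.1 CPM at day 0, at 1.09, 12.5 and 1.30 CPM at day 7, and at 0.681, 0.610 and 1.85 CPM at day 14. In GGI, V2_07g006990.1.01 was at 20.6, 19.2 and 28.5 CPM at day 0, at 1.15 and 2.82 CPM at day 7, and at 0.0614, 0.0363 and 0.578 CPM at day 14. IS day 7 replicate 2 again stood above the other IS day 7 libraries, and IS day 14 replicate 3 overlapped with day 7. In OP, V2_07g006990.1.01 was at 9.23, 10.1 and 4.81 CPM at day 0, at 8.84 and 9.39 CPM at day 7, and at 0.219, 0.20 and 0.950 CPM at day 14. In GQ, V2_07g006990.1.01 was at 5.07, 8.04 and 3.19 CPM at day 0, at 4.22 CPM at day 7, and at 0.0508, 0.718 and 0.193 CPM at day 14. The left-out day 7 libraries had V2_07g006990.1.01 at 6.45 CPM in GGI, 0 CPM in OP, and 6.15 and 0.598 CPM in GQ. The OP value and the lower GQ value lay below all day 0 libraries of their cultivars. They rest on 0 and 11 reads, in libraries with 71.0% and 30.1% of reads outside gene models, so nothing is read from them. The day 14 log2 fold change of V2_07g006990.1.01 was -4.14 ± 0.98 (SE, edgeR, adjusted p = 0.00180) in OP and -4.04 ± 0.98 (SE, adjusted p = 0.00192) in GQ. At day 14, IS and GGI differed from OP and GQ in V2_07g006990.1.01 by 0.35 ± 0.70 (SE; edgeR, adjusted p = 0.812), and in V2_03g016780.1.01 by -0.31 ± 0.98 (SE; adjusted p = 0.897), both of which did not pass. With 1 library left out, the first ran from -0.74 without GGI day 14 replicate 3 to 1.05 without GQ day 14 replicate 2. The second, for V2_03g016780.1.01, ran from -0.66 without GGI day 14 replicate 3 to 2.38 without GQ day 14 replicate 2, and was 0.83 without OP day 14 replicate 3, so neither has a settled sign.

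V2_15g001190.1.01 and V2_11g013540.1.01 had the strongest return after day 7 among the 3 members whose day 14 libraries all lay above day 7 in both IS and GGI and whose mean log2 CPM at day 0 was at least 1. In IS, V2_11g013540.1.01 was at 293, 546 and 588 CPM at day 0, at 112, 90.5 and 59.8 CPM at day 7, and at 292, 197 and 178 CPM at day 14. In GGI, V2_11g013540.1.01 was at 302, 289 and 277 CPM at day 0, at 95.2 and 86.1 CPM at day 7, and at 190, 227 and 218 CPM at day 14. It dipped at day 7 and came back part of the way in both cultivars. In OP, V2_11g013540.1.01 was at 67.7, 104 and 44.2 CPM at day 0, at 48.2 and 80.1 CPM at day 7, and at 330, 379 and 210 CPM at day 14. In GQ, V2_11g013540.1.01 was at 33.5, 72.6 and 18.1 CPM at day 0, at 45.0 CPM at day 7, and at 191, 219 and 139 CPM at day 14. OP and GQ stood lower at day 0 and had all day 14 libraries above all earlier ones. In the left-out day 7 libraries V2_11g013540.1.01 was at 75.5 CPM in GGI, 119 CPM in OP, and 83.7 and 42.6 CPM in GQ. The OP value and the higher GQ value lay above all day 0 libraries of their cultivars, and nothing is read from them. At day 14 V2_11g013540.1.01 was higher than at day 0 by 2.09 ± 0.40 (log2 fold change with SE; edgeR quasi-likelihood test, adjusted p = 0.000287) in OP and 2.14 ± 0.40 (SE; adjusted p = 0.000210) in GQ. Between IS and GGI and OP and GQ the day 14 difference was -0.13 ± 0.27 (SE; edgeR, adjusted p = 0.833).

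V2_15g001190.1.01 was scarce, with 13 to 45 reads in the IS and GGI day 7 libraries used. In IS, V2_15g001190.1.01 was at 1.96, 2.72 and 3.20 CPM at day 0, at 0.243, 0.842 and 0.282 CPM at day 7, and at 1.34, 1.14 and 0.976 CPM at day 14. In GGI, V2_15g001190.1.01 was at 2.59, 3.06 and 2.86 CPM at day 0, at 0.893 and 0.756 CPM at day 7, and at 8.88, 11.6 and 2.43 CPM at day 14. IS stayed below its day 0 level, and in GGI replicates 1 and 2 ended above it. In OP, V2_15g001190.1.01 was at 1.40, 1.72 and 1.18 CPM at day 0, at 1.84 and 1.25 CPM at day 7, and at 4.29, 3.63 and 3.34 CPM at day 14. In GQ, V2_15g001190.1.01 was at 1.25, 2.46 and 1.08 CPM at day 0, at 1.27 CPM at day 7, and at 10.1, 4.61 and 8.17 CPM at day 14. In the left-out day 7 libraries V2_15g001190.1.01 was at 1.88 CPM in GGI, 19.9 CPM in OP, and 5.96 and 7.72 CPM in GQ. The OP and GQ values among these lay above all day 0 libraries of their cultivars, and nothing is read from them. V2_15g001190.1.01 rose at day 14 by 2.25 ± 0.49 (log2 fold change, SE) in GQ (edgeR, adjusted p = 0.000708) and by 1.39 ± 0.48 in OP (adjusted p = 0.0218). The OP call was lost without OP day 0 replicate 1 (edgeR, adjusted p = 0.0557), OP day 0 replicate 3 (adjusted p = 0.0719) or OP day 14 replicate 1 (adjusted p = 0.0603), in a range that reached 0.165 with all 36 libraries. At day 14, V2_15g001190.1.01 was lower in IS than in GGI by -2.72 ± 0.50 (log2 fold change, SE; edgeR, adjusted p = 0.000906), and the library labelled GGI replicate 1 was among the higher ones. Without the 2 libraries that went against their labels it was lower by -2.59 ± 0.54 (SE; edgeR, adjusted p = 0.00363). V2_15g001190.1.01 and V2_11g013540.1.01 were named for their day 14 levels in IS and GGI, so the day 14 tests that use those levels are not independent of that choice.

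**Figure D5:**
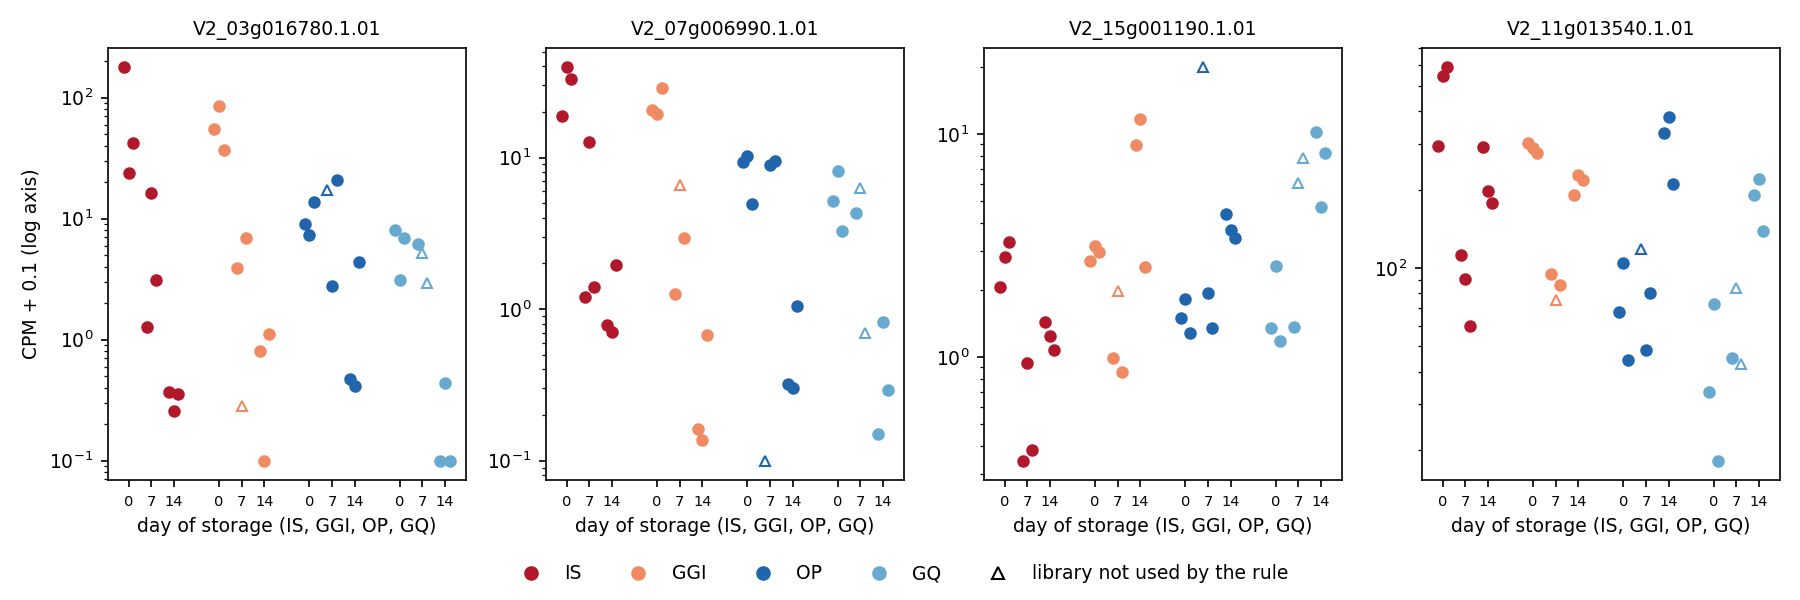
CPM plus 0.1 on a log axis for the 4 named gene models, 1 point per library, with day 0, 7 and 14 side by side for IS, GGI, OP and GQ; open triangles are the 4 libraries not used by the rule, and points at 0.1 hold 0 reads. The gene models on the left fall early in IS and GGI and late in OP and GQ, and those on the right dip at day 7 in IS and GGI and rise at day 14 in OP and GQ.

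The same thresholds were applied to the other cultivar pairs to place the number of members. With IS and GGI falling and OP and GQ level there were 166 gene models. With OP and GQ falling and IS and GGI level there were 35, with GGI and GQ falling 23, and with the other pairs 11 to 14. A rise in place of the fall gave 125 gene models for IS and GGI and 9 to 23 for the other pairs. GQ rests on 1 day 7 library in all of these counts, which are descriptions with no test. The 125 gene models with the early rise ended at day 14 with a median of 2.39 in IS, 2.31 in GGI, 1.69 in OP and 1.57 in GQ above day 0 (log2 difference).

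In the IDs, 149 members were spread over all 17 number groups, and 1 member lay outside them. The groups numbered 5 and 2 held 20 members each, or 1.34% and 1% of their gene models tested, and the group numbered 9 held 2, or 0.239%, where the members were 0.685% of all gene models tested. Neighbours in ID order were members together once, and 6 pairs of successive members lay within 5 gene models of each other.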

How the data were processed

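The authors deposited 1 table per library with whole-number counts of reads for 28632 gene models, not normalized, and 5 summary rows, which entered neither library sizes nor tests. Reads were processed with cutadapt and STAR, per the submitters' processing notes. Their versions, the counter, the build with its annotation and strand handling are not given in the sources, so counts of near-identical or overlapping gene models are uncertain. Groups and replicate numbers come from the sample titles. The labels call the replicates biological, and each p-value reflects the spread between the libraries of a group. No pair of replicates agreed within sampling noise. The floor of 3 counts covers counting error only, while the SE also holds the spread between libraries.

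Gene models with at least 10 reads in at least 3 of the 32 libraries used were kept. Counts were fitted with edgeR 4.0.16 (estimateDisp, robust glmQLFit, glmQLFTest) in R 4.3.3, in 1 fit with 1 mean per group (biological coefficient of variation 0.422). P-values were adjusted over all gene models tested. The SE was obtained from the log2 fold change and the F statistic (its size over root F). Markers of GGI and GQ were on above 1 CPM and off under 0.1 CPM at day 0, and were read as on above 0.316 CPM. Values of the 4 left-out libraries were scaled over all 36. The named gene models are the 2 with the strongest mean fall and the 2 with the strongest mean return in IS and GGI that do not overlap between the days compared. Counts of members with no room to fall and the day 14 classes without 2 libraries were added after seeing the data. The members and rules were chosen with earlier results of these data known. Alternatives were RLE scaling, DESeq2 1.42.0, other filters, priors and thresholds, other sets of libraries, a replicate block and each library left out.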

Additional observations from a re-analysis of the deposited data

Results flagged for a closer look

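V2_11g013540.1.01 and V2_15g001190.1.01 moved in opposite directions between cultivars from day 0 to day 14, with no overlap between the days. The day 14 change in IS minus that in OP was -3.20 for V2_11g013540.1.01 and -2.51 for V2_15g001190.1.01 (log2 CPM). The change in IS minus that in GQ was -3.41 for V2_11g013540.1.01 and -3.38 for V2_15g001190.1.01. The change of V2_11g013540.1.01 in GGI minus that in OP was -2.59, and minus that in GQ it was -2.80. In each case all day 14 libraries lay below all day 0 libraries in the cultivar named first and above them in the other. The margin was small for V2_11g013540.1.01 in IS, with 292 CPM in the highest day 14 library and 293 CPM in the lowest day 0 library. These differences were not tested, because the day 0 libraries of IS and GGI took part in the choice of the members. Over the list, 2 of the 150 members had all IS and GGI day 14 libraries below day 0 and all OP and GQ day 14 libraries above it. How many of all gene models did so was not counted, so nothing is read from this number.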

How the results depend on the processing

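The number of gene models meeting the rule was 98 with a band of 0.3 for OP and GQ, 51 with all 36 libraries, and 141 to 215 with 1 library left out; GQ day 7 replicate 1 could not be left out. RLE scaling, a prior count of 0.5, no filter, scaling over 36 libraries and a threshold of -1 gave 165 to 229. Members called at day 14 between IS and GGI and OP and GQ numbered 8, and 17 with DESeq2, 3 with all 36 libraries, 15 without the 2 libraries with crossed markers, 2 in a fit of day 14 alone, and 5 to 14 with 1 library left out. Of all 21883 gene models, 2030 were called, 3090 with DESeq2 and 497 with all 36 libraries. Without the crossed libraries 2808 were called, and 607 in the fit of day 14 alone. In OP the members called numbered 79, 51 with all 36 libraries and 59 to 89 with 1 library left out. Of all gene models, 9790 were called in OP, and 5653 with all 36 libraries. In GQ the members called numbered 89, and 69 to 91 with 1 library left out. Of all gene models, 10569 were called in GQ. Between IS and GGI at day 14 the members called numbered 24, and 9 with all 36 libraries. They numbered 13 without the crossed libraries, 0 in the fit of those groups alone and 13 to 44 with 1 library left out. Of all gene models, 4200 were called there, 1338 with all 36 libraries, 2534 without the crossed libraries and 477 in the fit of those groups alone. The difference between the OP and GQ changes called 0, 3 with DESeq2, 1 without the crossed libraries and 0 to 2 with 1 library left out. Of all gene models, 45 were called for it, 477 with DESeq2 and 62 without the crossed libraries. Counts over all gene models are not given for the fits with 1 library left out. The cause of these moves was not tested. Replicate numbers did not pair the libraries (31 of 145 pairs of same-numbered libraries correlated over 0.1 in their deviations, median 0.00). With the replicate number as a block the members called numbered 7, 80, 90, 24 and 0 in the order above, with no count moved by over 1.5 times. Of all gene models, 1877, 9591, 10407, 4027 and 20 were called in that fit. The fall of at least 1.2 at day 14 held for 70 to 86 members in OP, 70 to 91 in GQ and 55 to 66 in all 4 cultivars with 1 library left out. The median difference between the pairs was 0.02 to 0.17 at day 14 and 1.22 to 1.40 at day 0. IS day 7 libraries all below day 0 numbered 147 without replicate 2. Of 468 alternative values of the named gene models 4 lost their call, 3 gained one and 0 reversed with a call.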
